A study of Mus musculus with 3 samples.

Results

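The 53 genes described here act in mitosis, spindle assembly and chromosome segregation. They were taken by gene symbol from the 50600 genes counted in mouse T-helper 1 (Th1) cells, and all 53 had a row in the count files. They fall into 8 roles: entry into mitosis, chromosome structure, the centromere and kinetochore, the spindle checkpoint, spindle motors and microtubule proteins, the chromosomal passenger complex, the anaphase promoting complex with cohesin release, and the central spindle with cytokinesis. Of the 53, 41 had no exon base in common with a gene on the other strand and 12 had such an overlap. The 12 are called overlapped and their values are given apart.

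In a dividing cell, cyclins A and B switch on the kinase Cdk1, condensin and topoisomerase II compact the chromosomes, and microtubules of the spindle attach to each centromere through the kinetochore. The spindle checkpoint holds the cell until every kinetochore is attached, after which the anaphase promoting complex marks cyclin B and securin for destruction and separase cuts the cohesin that ties sister chromatids. Cytokinesis then divides the cell. CD4 T cells leave quiescence and divide quickly after their antigen receptor is engaged, and many of these genes are transcribed late in the cell cycle.

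RNA was measured in primary Th1 cells of the C57BL/6NJ strain, CD4 T cells committed to making interferon gamma. The labels give 1 group of 3 libraries, numbered as biological replicates but with 1 donor record, so the spread between them may be technical; age and sex were not given. File headers place the cells at 72 h and call them sorted. The labels call the RNA total, while the library protocol they link to is named for polyadenylated RNA.

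The libraries held 4482916, 266790 and 3733531 counts in replicates 1, 2 and 3, and replicate 1 was thus 16.8-fold and replicate 3 14.0-fold deeper than replicate 2. In a gene of 2000 bases, 3 counts were worth 0.717, 11.6 and 0.737 TPM in replicates 1, 2 and 3. TPM is a share of the library scaled by exon length. It lets genes of different length be compared only as far as the counted strand and the exon length are those of the transcript. The length used is that of all annotated exons of a gene, which can exceed that of the transcript present. Among members it ran from 692 bases in Cks2 to 16417 in Cit. All 6 T-cell markers reached a mean of 10 TPM, and of the 6 Th1 markers 5 did so and all reached 1 TPM. Cd4 had 174 ± 53.5 and the interferon gamma gene Ifng 604 ± 252 TPM (SD, n = 3). The lowest Th1 marker had 1.3 ± 1.16 TPM, from 8, 0 and 6 counts in replicates 1, 2 and 3. The lowest T-cell marker, which was overlapped, had 34.2, 1.9 and 18.9 TPM. Among markers of CD8 T, B, NK and erythroid cells, macrophages and neutrophils, those at 0 counts included Cd8a, Ms4a1, Lyz2, Ncr1, S100a8 and Hbb-bs. The 5 with counts were Csf1r (overlapped, 111 TPM), Alas2 (overlapped, 11.0), Cd79a (8.23), Cd8b1 (2.28) and Ly6g (0.86). The cells were a bulk sample, in which fewer cells of a kind and less RNA per cell cannot be told apart.

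Every level here, those of the markers included, is that of the strand the files counted. This can be either the transcript's own strand or its opposite. The deposited counts were made with strand setting 1, and the sources used here do not name the library kit. The mitochondrial gene mt-Nd6, whose template differs in strand from that of the other mitochondrial protein genes, was counted 18316, 1673 and 13631 times in replicates 1, 2 and 3, while mt-Co1 was counted 10721, 546 and 5027 times. Overlapped genes of all kinds held 51.7%, 55.1% and 66.5% of all counts in replicates 1, 2 and 3. The part of the strand setting in the members' values was not tested.

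Promoters are shown first because many members carry the same short elements there. The cell cycle homology region (CHR), whose core was searched as TTTGAA on either strand, is known as the site where the DREAM and MuvB complexes hold mitotic genes silent in resting cells and switch them on late in the cycle. The CCAAT box, searched as CCAAT on either strand, is the site of the NF-Y factor. The windows below run from 120 bases before to 29 bases after the transcript's first base, on the transcript's strand, from the RefSeq promoter table on GRCm38.p6, with matches to either motif in capitals. In Cdca8 the 2 motifs overlap.
Ccnb2 (mitotic cyclin B2, chr9:70421525-70421674, minus strand): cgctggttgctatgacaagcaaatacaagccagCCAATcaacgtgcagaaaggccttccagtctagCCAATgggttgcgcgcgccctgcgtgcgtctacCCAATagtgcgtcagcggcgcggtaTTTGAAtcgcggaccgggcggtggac
Top2a (topoisomerase II alpha, chr11:99024160-99024309, minus strand): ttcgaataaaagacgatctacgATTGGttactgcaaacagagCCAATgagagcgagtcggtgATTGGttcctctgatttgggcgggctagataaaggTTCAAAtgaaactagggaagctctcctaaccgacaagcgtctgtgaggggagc
Cenpf (outer kinetochore protein, chr1:189688057-189688206, minus strand): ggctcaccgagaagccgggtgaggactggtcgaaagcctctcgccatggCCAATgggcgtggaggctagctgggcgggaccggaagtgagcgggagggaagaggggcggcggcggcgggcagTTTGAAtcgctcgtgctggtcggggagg
Ttk (checkpoint kinase MPS1, chr9:83834569-83834718, plus strand): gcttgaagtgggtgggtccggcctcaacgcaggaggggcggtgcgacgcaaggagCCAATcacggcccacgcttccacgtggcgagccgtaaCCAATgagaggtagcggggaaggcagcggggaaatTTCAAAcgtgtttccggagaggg
Hmmr (spindle protein RHAMM, chr11:40733408-40733557, minus strand): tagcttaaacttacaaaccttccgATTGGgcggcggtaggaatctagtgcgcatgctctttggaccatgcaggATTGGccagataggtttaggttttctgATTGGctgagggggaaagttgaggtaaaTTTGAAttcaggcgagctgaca
Cdca8 (borealin, chr4:124936888-124937037, minus strand): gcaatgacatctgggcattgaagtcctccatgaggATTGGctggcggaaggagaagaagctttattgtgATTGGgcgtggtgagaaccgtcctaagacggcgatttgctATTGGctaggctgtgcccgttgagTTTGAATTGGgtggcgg
Cdc20 (activator of the anaphase promoting complex, chr4:118437314-118437463, minus strand): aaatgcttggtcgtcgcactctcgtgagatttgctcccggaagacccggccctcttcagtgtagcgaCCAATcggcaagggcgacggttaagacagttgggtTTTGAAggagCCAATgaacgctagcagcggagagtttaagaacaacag
Racgap1 (central spindle protein, chr15:99651627-99651776, minus strand): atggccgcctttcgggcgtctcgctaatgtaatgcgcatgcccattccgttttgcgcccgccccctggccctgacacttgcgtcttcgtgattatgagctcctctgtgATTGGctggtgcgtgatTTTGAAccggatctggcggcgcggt
Birc5 (survivin, shown because neither string is in its window, chr11:117849117-117849266, plus strand): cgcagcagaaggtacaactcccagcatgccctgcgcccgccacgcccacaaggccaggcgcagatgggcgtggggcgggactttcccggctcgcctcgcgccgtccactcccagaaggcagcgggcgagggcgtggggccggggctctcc

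The promoter table held 44 of the 53 members, with windows of 250 bases before and 50 after the start. TTTGAA was in 30 of these 44 genes (68.2%), against 20.2% of all 27025 genes in the table, 17.9% of all 32851 promoters and 14.0% of protein-coding genes detected at a mean of 1 TPM or more. The match lay no farther than 50 bases before the start or after it in 27 members (61.4%), against 5.72% of all genes and 3.77% of detected coding genes. CCAAT was in 32 members (72.7%), against 41.1% of all genes and 43.2% of detected coding genes, and 21 members (47.7%) held more than 1 CCAAT box, against 13.3% and 17.1%. Both motifs were in 27 members (61.4%), against 7.97% of all genes and 5.94% of detected coding genes. The 34 members without overlap gave 67.6% for TTTGAA and 70.6% for CCAAT. Median GC content was 59.0% in member promoters and 60.7% in those of detected coding genes.

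Among DNA replication genes, which are transcribed earlier in the cycle, 35 had a promoter in the table. The CHR-type string was in 5 of them (14.3%) and CCAAT in 23 (65.7%). In 11 genes for G1 cyclins, kinases and inhibitors the shares were 9.09% and 54.5%. The other mitosis genes of the pathway lists below held TTTGAA in 33 of 88 (37.5%) and CCAAT in 49 (55.7%). A match is a description of letters, not of bound factor. Members with TTTGAA had a median level of 44.4 TPM (n = 30, from 5.24 to 169) and those without it 30.7 TPM (n = 14, from 3.52 to 105), and these ranges overlapped.

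**Figure D1:**
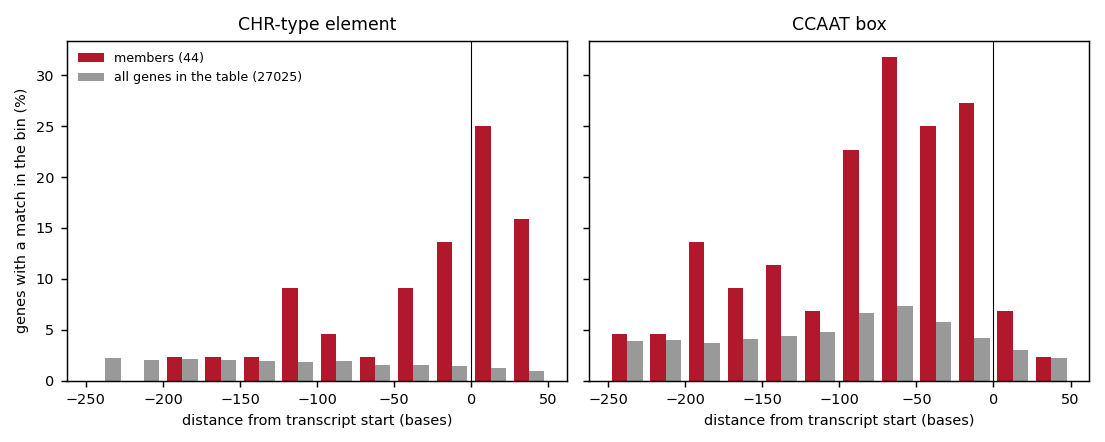
Share of genes with a match of the CHR-type element (TTTGAA, left) or the CCAAT box (right) in each bin of 25 bases, by distance of the match from the transcript start in bases, for 44 members (red) and all 27025 genes in the promoter table (grey). The red CHR bars are highest in the first 25 bases after the start, with 11 of the 44 members, and the red CCAAT bars between 75 and 51 bases before it, at 31.8%.

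All 53 members reached a mean of 1 TPM, against 47.8% of 21764 protein-coding genes, and 49 reached 10 TPM, against 27.3%. The median member had 40.0 TPM, against 12.8 for detected protein-coding genes. Without overlap the medians were 34.9 TPM in members and 11.3 in detected coding genes, and with overlap 62.3 and 17.2. In 51 members every library held at least 1 TPM, against 8225 of 10408 detected coding genes. The exceptions were Spc25 and Cdc25c with 0 counts in replicate 2. In that shallow library the cut can be passed with few counts, as by Ttk with 2. Members took 0.73%, 0.761% and 0.593% of all counts in replicates 1, 2 and 3. The 41 without overlap took 1.14%, 1.28% and 1.2% of the counts in genes without overlap, and the 12 overlapped members 0.345%, 0.339% and 0.285% of those in overlapped genes.

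Among members without overlap, chromosome structure genes had a median of 106 TPM (n = 6), spindle motors and microtubule proteins 67.3 (n = 4), the passenger complex 52.9 (n = 3) and mitotic entry 40.0 (n = 9). The medians were 23.8 for the centromere and kinetochore (n = 7), 23.3 for the checkpoint (n = 5), 22.6 for the anaphase promoting complex and cohesin release (n = 2) and 14.5 for cytokinesis (n = 5). With overlapped members added, the medians of 2 roles stood farthest from these, at 64.0 TPM for chromosome structure and 64.1 for the anaphase promoting complex and cohesin release. By mean TPM the order ran from Ccna2 (overlapped) at 204 ± 49.5 to Cit at 3.52 ± 1.55. Of 52 neighbouring pairs in this order, 1 differed by more than the larger SD of the pair, which was Anln above Cit. The same 5 genes, Smc4, Mki67, Ccna2, Incenp and Top2a, were among the 6 highest of each library. They were joined by Cks1b in replicate 1 and by Kif20a (overlapped) in replicates 2 and 3.

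**Figure D2:**
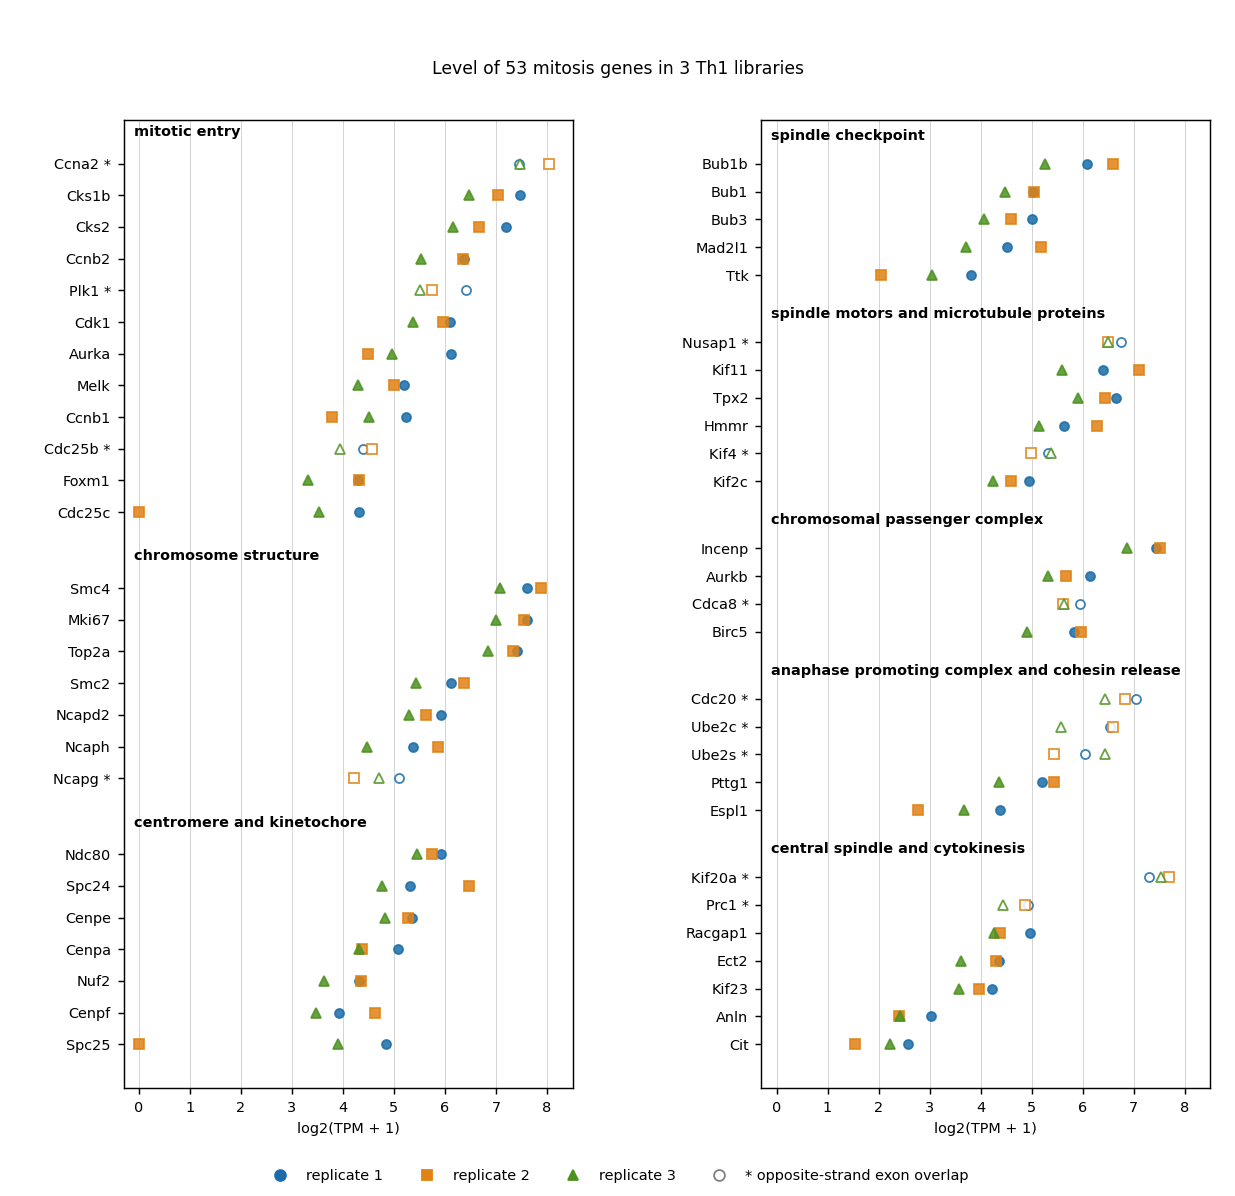
Level of each of the 53 members as log2(TPM + 1) in replicates 1 (circles), 2 (squares) and 3 (triangles), grouped by role and ordered by mean within a role, with open symbols and an asterisk for overlapped genes. Replicate 3 lies lowest for 39 of the 53 members, and Cdc25c and Spc25 lie at 0 in replicate 2.

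Genes of mitotic entry spanned levels from Cks1b to Cdc25c among those without overlap. Cks1b and Cks2 encode small subunits of cyclin-dependent kinases. Cks1b had 177, 131 and 88.1 TPM in replicates 1, 2 and 3 (132 ± 44.5, SD, n = 3), and Cks2 had 145, 101 and 70.3 (105 ± 37.7). Both were highest in replicate 1 and lowest in replicate 3. Ccnb2, the cyclin B2 gene, had 81.8, 80.9 and 45.5 TPM (69.4 ± 20.7), and Cdk1, the kinase it activates, had 67.6, 61.2 and 40.6 (56.4 ± 14.1). In these genes replicates 1 and 2 lay together and replicate 3 below them. Ccnb1, the cyclin B1 gene on chromosome 13 from 100778650 to 100786570 (mm10), stood lower at 36.9, 12.8 and 21.9 TPM, from 325, 7 and 188 counts.

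Aurka, the centrosomal kinase on chromosome 2 from 172356190 to 172370535, had 68.2, 21.4 and 30.3 TPM in replicates 1, 2 and 3, from 361, 7 and 156 counts. Replicate 1 was high, and the value of replicate 2 rested on few counts. Melk, a kinase of dividing cells, had 28.6 ± 8.91 TPM, and Foxm1, a transcription factor of mitotic genes, had 15.5 ± 5.64 from 18.6, 18.8 and 8.96. Cdc25c encodes a phosphatase that activates Cdk1. It had 77, 0 and 42 counts, which gave 19.0, 0 and 10.6 TPM, and 4.08 counts would fall to replicate 2 by library size. There 3 counts equal 12.0 TPM. The difference between libraries did not pass the test described below (adjusted p = 0.0808). The overlapped entry genes were Ccna2, the cyclin A2 gene, with 175, 262 and 176 TPM, Plk1, the polo kinase, with 84.2, 52.8 and 44.4, and the phosphatase gene Cdc25b with 19.9, 22.8 and 14.4.

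Among chromosome structure genes, Smc4, a core ATPase subunit of condensin, had 193, 235 and 134 TPM in replicates 1, 2 and 3 (187 ± 50.8). Its partner subunit Smc2 had 68.1, 81.9 and 42.0 (64.0 ± 20.3). Mki67, the gene of the Ki-67 protein that coats mitotic chromosomes and is used as a marker of dividing cells, lies on chromosome 7 from 135689784 to 135716361. It had 193, 185 and 127 TPM (169 ± 36.1), from 4066, 241 and 2605 counts, the most counts of any member in replicates 1, 2 and 3. Top2a, which untangles DNA strands, had 169.9, 161 and 113 TPM (148 ± 30.6). In all 4 genes replicate 3 was lowest on this scale. With TPM taken over genes without overlap alone, replicate 3 was highest in Mki67 and Top2a and lowest in Smc2. On that scale Smc4 was lowest in replicate 1. The condensin I subunits Ncapd2 and Ncaph had 48.7 ± 10.7 and 39.6 ± 18.2 TPM, and the overlapped subunit gene Ncapg had 25.3 ± 7.85.

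The 7 centromere and kinetochore genes had no overlap. Ndc80 and Nuf2 form the arm of the NDC80 complex that binds microtubules, and Spc24 and Spc25 form its base. Ndc80 had 60.0, 52.7 and 42.6 TPM in replicates 1, 2 and 3 (51.8 ± 8.72), while Nuf2 had 19.0, 19.5 and 11.3 (16.6 ± 4.6). Spc24 had 38.7, 87.2 and 26.1 TPM (50.7 ± 32.3), from 208, 29 and 137 counts, with replicate 2 the highest. Spc25 had 27.9, 0 and 14.0 TPM (14.0 ± 14.0), from 186, 0 and 91 counts, with replicate 2 the lowest, where 9.5 counts would fall by library size and 3 counts equal 7.28 TPM. Cenpe, the kinetochore motor, had 34.9 ± 6.64 TPM, Cenpa, the histone H3 variant that marks the centromere, 23.8 ± 7.72, and Cenpf 15.9 ± 6.91.

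Checkpoint genes were led by Bub1b, which encodes BubR1, a part of the mitotic checkpoint complex. Bub1b had 66.7, 96.0 and 37.1 TPM in replicates 1, 2 and 3 (66.6 ± 29.4). Its paralog Bub1, a kinase, had 31.5, 32.0 and 21.4 (28.3 ± 5.97), below Bub1b in every library. Bub3, their shared partner, had 23.3 ± 7.64 TPM, and Mad2l1, the Mad2 protein that holds Cdc20, had 21.8, 35.1 and 12.2 (23.0 ± 11.5). Ttk, the kinase at the head of the checkpoint, was the lowest of the role at 13.0, 3.15 and 7.29 TPM, from 134, 2 and 73 counts.

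Of the spindle motors, Kif11, the Eg5 kinesin that pushes the spindle poles apart, had 83.1, 137 and 47.6 TPM in replicates 1, 2 and 3 (89.1 ± 44.8). Tpx2, which activates Aurora A on the spindle, had 99.3, 86.1 and 58.8 (81.4 ± 20.6). Replicate 2 was highest in Kif11 and replicate 1 in Tpx2, and replicate 3 was lowest in both. Hmmr had 53.2 ± 21.8 TPM and Kif2c, a kinesin that shortens microtubules at the centromere, 23.7 ± 6.04. The overlapped genes were Nusap1, a microtubule bundler, with 107, 89.6 and 88.8 TPM, and the chromokinesin gene Kif4 with 39.1, 30.9 and 40.7.

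In the chromosomal passenger complex, which corrects faulty attachments, the scaffold gene Incenp had 171, 183 and 115 TPM in replicates 1, 2 and 3 (156 ± 36.5). Its kinase Aurkb had 69.6, 49.9 and 39.0 (52.9 ± 15.5) and Birc5 had 55.7, 61.4 and 28.9 (48.7 ± 17.4). The scaffold thus lay above both other subunits without overlap in each library. Cdca8 (overlapped) had 61.0, 47.8 and 48.6 TPM (52.5 ± 7.38).

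Among genes of the anaphase promoting complex and cohesin release, the 2 without overlap were Pttg1, the securin gene, and Espl1, the gene of the separase that securin restrains. Pttg1 had 35.9, 42.6 and 19.6 TPM in replicates 1, 2 and 3 (32.7 ± 11.8), and Espl1 had 19.8, 5.84 and 11.8 (12.5 ± 6.99), from 274, 5 and 159 counts. Pttg1 was above Espl1 in each library. The overlapped genes were Cdc20 with 131, 112 and 85.2 TPM, the ubiquitin-conjugating enzyme gene Ube2c with 91.2, 95.3 and 46.8, and Ube2s, which extends the ubiquitin chain, with 64.6, 42.2 and 85.6. Ube2s was the one of these with replicate 3 highest.

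Cytokinesis genes without overlap had a median of 14.5 TPM, the lowest of the 8 roles, with Cit and Anln at its end. Their median exon length was 7901 bases, against 4919 in all members without overlap. The part of exon length in their level was not tested. Racgap1 and Kif23, the subunits of centralspindlin, had 30.1, 19.7 and 18.2 TPM and 17.7, 14.7 and 11.0 TPM in replicates 1, 2 and 3. Ect2, the exchange factor that activates RhoA at the cleavage plane, had 16.5 ± 4.52 TPM. Anln, an actin scaffold of the cleavage furrow, had 7.12, 4.27 and 4.33 TPM, and Cit, the citron kinase gene, had 4.98, 1.89 and 3.68, from 171, 4 and 123 counts. Their overlapped neighbours in role differed from each other, with the kinesin gene Kif20a at 157, 206 and 184 TPM and the microtubule bundler Prc1 at 29.4, 28.2 and 20.6.

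The overlapped members shared from 53 to 1259 exon bases with a gene on the other strand, and 7 of the 12 partners had a higher mean TPM than the member. Kif20a shared 1259 bases with Cdc23, a subunit of the anaphase promoting complex (148 ± 29.2 TPM), and Ccna2 shared 510 with Exosc9, an RNA exosome subunit (344 ± 81.0 TPM). Ube2s shared 183 bases with the ribosomal protein gene Rpl28, at 833 ± 245 TPM and 3947, 218 and 2089 counts in replicates 1, 2 and 3. Plk1 shared 156 bases with Gm44985, at 495 ± 249 TPM. Partners of lower level were Elovl1 for Cdc20 (33.3 TPM), Oip5 for Nusap1 (21.5), Tnnc2 for Ube2c (15.9) and 9930104L06Rik for Cdca8 (3.49). Partners of higher level were also Rccd1 for Prc1 (131 TPM), Pdzd11 for Kif4 (82.4), Lcorl for Ncapg (36.8) and Spef1 for Cdc25b (35.3). Fragments of the shared bases cannot be assigned to 1 gene with certainty, so the level of these 12 members is uncertain.

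Ratios of 18 pairs of partners, paralogs or subunits were taken within each library as log2 of TPM + 1, which removes the scale of the library. A ratio still depends on the annotated exon length of each gene. The first gene was higher in every library in 10 pairs, the second in 5, and 3 pairs were mixed. With 3 libraries an exact sign-flip permutation test cannot go below 0.25, so no test was made. The steadiest ratio was Mki67 over Top2a at 0.18 ± 0.02 (SD, n = 3), followed by Cks1b over Cks2 at 0.33 ± 0.04 and Smc2 over Smc4 at -1.55 ± 0.09. In each of these pairs both genes had lower TPM in replicate 3 than in replicate 1, while the ratio kept its direction in every library. With TPM taken over genes without overlap alone, Cks1b, Cks2 and Smc2 were still lower in replicate 3. Higher in replicate 3 than in replicate 1 on that scale were Mki67 (509.5 against 493), Top2a (453 against 433) and Smc4 (535 against 492).

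Within the kinetochore, Ndc80 exceeded Nuf2 by 1.61 ± 0.22 and Cenpe exceeded Cenpf by 1.14 ± 0.42. Counts in replicates 1, 2 and 3 were 276, 15 and 191 for Ndc80 and 252, 16 and 146 for Nuf2. The annotated exon length was 2201 bases in Ndc80 and 6341 in Nuf2. In the checkpoint, Bub1 stood below Bub1b by a ratio of -1.13 ± 0.4, and in centralspindlin Kif23 below Racgap1 at -0.60 ± 0.18. Ccnb1 stood below Ccnb2 at -1.57 ± 0.86, with -1.13, -2.56 and -1.02 in replicates 1, 2 and 3. By counts Ccnb1 lay above Ccnb2 in replicates 1 and 3 (325 and 188 against 262 and 142). It lay below Ccnb2 in replicate 2 (7 against 16 counts). The annotated exon length was 4217 bases in Ccnb1 and 1531 in Ccnb2. The part of exon length in the pair ratios was not tested. Cdk1 over Ccnb1 was 1.30 ± 0.75 and Tpx2 over Aurka 1.14 ± 0.73, and Pttg1 over Espl1 was 0.83, 2.67 and 0.69 in replicates 1, 2 and 3. In each of these the replicate 2 value, which rested on 5 or 7 counts of Ccnb1, Espl1 or Aurka, lay apart from the other libraries.

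The Aurora kinases were mixed in size, with Aurka over Aurkb at -0.03, -1.18 and -0.36 in replicates 1, 2 and 3. Birc5 over Aurkb was -0.32, 0.29 and -0.42, so its direction differed between libraries. Spc24 over Spc25 was 0.46, 6.46 and 0.85, and Cdc25b (overlapped) over Cdc25c was 0.06, 4.58 and 0.4. Their high values came from 0 counts of the second gene in replicate 2. Ccna2 (overlapped) over Ccnb1 was 3.14 ± 1.03, while Ncapg over Ncaph (-0.56 ± 0.98) and Ube2c over Ube2s (0.26 ± 1.03), with overlapped members, changed direction between libraries.

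**Figure D3:**
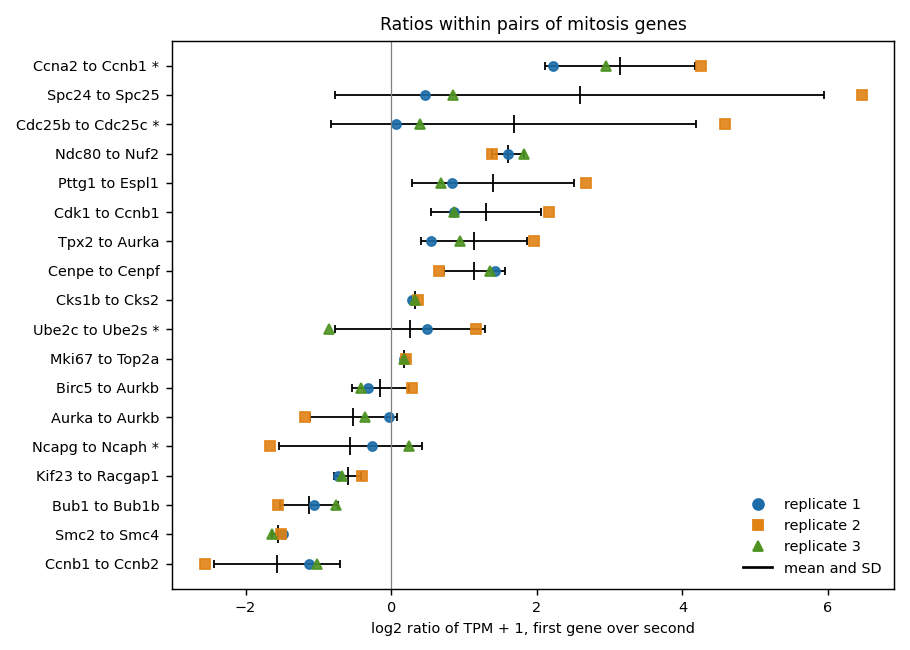
Log2 ratio of TPM + 1, first gene over second, for the 18 pairs in replicates 1 (circles), 2 (squares) and 3 (triangles), with the mean as a tick and the SD as a bar, and an asterisk where a member is overlapped. Mki67 to Top2a, Cks1b to Cks2 and Smc2 to Smc4 have the narrowest bars, and replicate 2 lies far right for Spc24 to Spc25 and Cdc25b to Cdc25c.

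Across the 53 members, log2(TPM + 1) of replicate 1 correlated with that of replicate 3 at Pearson's r = 0.97 and Spearman's rho = 0.969. With replicate 2 the values were 0.828 and 0.9 for replicate 1, and 0.829 and 0.883 for replicate 3. In the 41 members without overlap, replicates 1 and 3 gave 0.99 and 0.987, against 0.973 and 0.968 in 7040 detected coding genes without overlap. These are descriptions across genes, which are not independent replicates.

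Levels of members were compared between libraries with a chi-square test of the counts against library sizes, over genes with a mean count of at least 10. A gene was called where its highest library was at least 2 times its lowest and its p, adjusted by Benjamini and Hochberg's method, was under 0.05. The test holds counting error only and compares these libraries, not conditions. It called 9 of the 53 members (17.0%), against 29.5% of 11595 genes tested. Of these, 8 were among the 41 members without overlap (19.5%), close to the 22.6% of 6933 tested genes without overlap. The other was 1 of the 12 overlapped members, against 39.7% of 4662 overlapped genes. The median ratio was 1.5 in members and 1.7 in all genes tested. At an adjusted p under 0.05, whatever the ratio, there were 33 of the 53 members, against 55.5% of all genes tested.

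Called members with replicate 1 highest were Spc25 (ratio 3.75, adjusted p = 0.000371), Espl1 (3.31, adjusted p = 0.0109), Aurka (3.12, adjusted p = 2.58e-07) and Ccnb1 (2.81, adjusted p = 0.00791), and of all genes tested 6.99% were called in this direction. In these 4, replicate 2 was lowest, with 0, 5, 7 and 7 counts. Called members with replicate 2 highest were Spc24 (2.46, adjusted p = 8.37e-05), Kif11 (2.11, adjusted p = 7.48e-10), Mad2l1 (2.11, adjusted p = 8.9e-05) and Ncaph (2.01, adjusted p = 0.000157), against 10.5% of all genes. Replicate 3 was lowest in these 4. Ube2s (overlapped) was called with replicate 3 highest (2.75, adjusted p = 1.98e-35), against 12.0% of all genes.

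With genes without overlap alone, scaled over these, 3 of 41 members were called, against 15.5% of 6933 genes. They were Spc25 (ratio 3.67, adjusted p = 0.00951), Aurka (3.06, adjusted p = 0.000596) and Spc24 (2.35, adjusted p = 0.000557). Between replicates 1 and 3 the chi-square test called 0 of 53 members, against 14.9% of 12257 genes. At an unadjusted p under 0.05 there were 22 members and at an adjusted p under 0.05 there were 17 (against 36.9% of all genes), with a highest ratio of 1.99. Without overlap it called 0 of 41, against 5.15% of 7414 genes, with 9 members at an unadjusted p under 0.05, 4 at an adjusted p under 0.05 (against 12.9% of these genes) and a highest ratio of 1.38. In each of the 9 members called over 3 libraries, the shallow replicate 2 was the highest or the lowest library.

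On the log2(TPM + 1) scale, replicate 3 was below replicate 1 in 41 of 41 members without overlap, with a median difference of -0.73. Over all 6933 genes tested without overlap the median was -0.69 and 93.0% were lower. In overlapped members the median was -0.36 and 8 of 12 were lower, against -0.02 and 50.8% of 4662 overlapped genes. Scaled over genes without overlap alone, the difference was -0.10 in members, lower in 29 of 41, against -0.11 and 64.8% of the genes tested. The lower TPM of members in replicate 3 was thus close to that of other genes without overlap, in a library where overlapped genes held 66.5% of the counts. The part of that share in the difference was not tested.

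**Figure D4:**
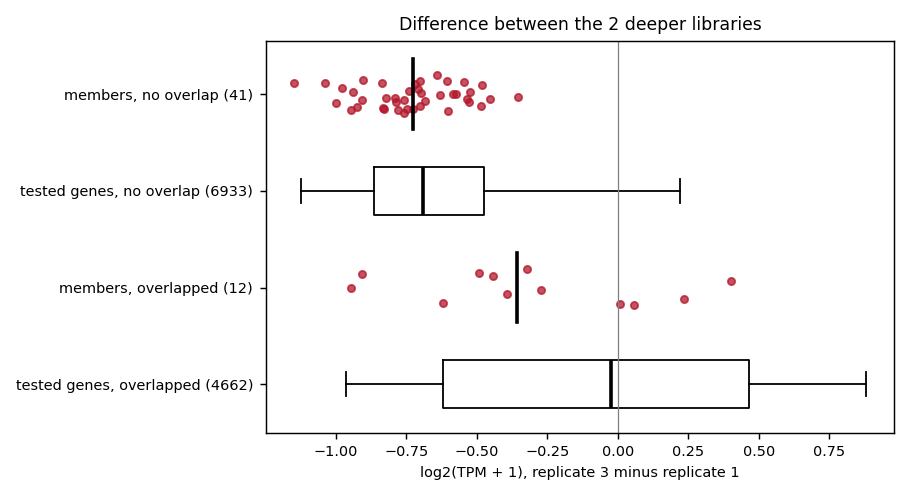
Difference in log2(TPM + 1), replicate 3 minus replicate 1, for 41 members without overlap and 12 overlapped members (points, with the median as a bar) and for all genes tested of each kind (box with quartiles and median, whiskers from the 5th to the 95th percentile). Members and other genes without overlap share a median near -0.7, while overlapped members centre on -0.36 and other overlapped genes on -0.02.

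Set beside the other genes of the pathway, members lay on the high side. The median was 40.0 TPM in members and 19.6 TPM in 8 pathway lists of 106 further mitosis genes, with all 106 at 1 TPM or more and 88 at 10 TPM or more, and 17 of the 105 tested were called between libraries, against 29.5% of all genes tested. Of the 105, 4 were called with replicate 1 highest, 12 with replicate 2 and 1 with replicate 3, against 6.99%, 10.5% and 12.0% of all genes tested. Without overlap the median was 34.9 TPM in members and 17.6 TPM in these lists. Condensin II had a median of 22.9 TPM, with Ncapg2 at 22.9 ± 8.17 and Ncapd3 at 18.8 ± 4.78, and Ncaph2 (overlapped) at 156, 201 and 159.8 in replicates 1, 2 and 3. Cohesin, the ring that ties sister chromatids, had 19.8, led by its subunits Rad21 (159 ± 57.6), Smc1a (117 ± 33.7) and Smc3 (59.3 ± 13.6). Its lowest genes were the loader subunit Mau2 (7.44 ± 2.17) and Stag1 (9.23 ± 2.95).

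Subunits of the anaphase promoting complex, listed with some of its regulators, had a median of 19.6 TPM. Cdc23 (overlapped) was highest at 148 ± 29.2, followed by Anapc5 at 74.0 ± 24.9 and the inhibitor gene Fbxo5 at 41.3 ± 17.3. Cdc26 was lowest at 2.65 ± 2.35. Inner kinetochore genes had 12.7, with Cenpu (overlapped) at 99.6 ± 24.9 and Cenpl at 3.37 ± 0.815. Outer kinetochore and centromere loading genes had 14.4, from Hjurp, the chaperone that deposits Cenpa, at 36.5 ± 12.7 to Nsl1 at 7.59 ± 2.5. Other mitotic kinesins and spindle proteins had 23.0, with Ckap5 at 39.5 ± 15.6 and Depdc1a at 2.67 ± 2.36. Brakes on mitotic entry and phosphatase genes had 31.1, led by the phosphatase scaffold Ppp2r1a (79.2 ± 36.6), while Wee1, the kinase that restrains Cdk1, had 9.58 ± 1.52 and Mastl, which opposes the phosphatase, 9.21 ± 4.95. DREAM and MuvB genes had 17.7, from Tfdp1 (95.8 ± 15.2) and E2f4 (91.4 ± 42.7) to Lin9 (2.71 ± 2.56) and Lin52 (1.73 ± 1.53).

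DNA replication genes stood close to the members. Their 43 genes all reached 1 TPM, 41 reached 10 TPM and the median was 39.2 TPM, or 36.9 without overlap. The sliding clamp gene Pcna had 165 ± 62.4 TPM and the ribonucleotide reductase gene Rrm2 153 ± 60.6, in the range of Smc4, Mki67 and Top2a. Of the 43, 10 were called between libraries, against 29.5% of all genes tested. G1 cyclins, kinases and inhibitors had a median of 12.5 TPM, and 12 of 15 reached 1 TPM. They ranged from the kinase gene Cdk4 (overlapped) at 455 ± 23.7 TPM to the inhibitor genes Cdkn2a and Cdkn2b, with 0 counts in each library.

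Germline paralogs of the members were not detected. Ccna1 (overlapped), Ccnb3, Aurkc, Kif2b and Cdc20b had 0 counts in all libraries. Against 3 counts over the group, Ccnb2 was at least 418-fold and Ccnb1 at least 188-fold higher than Ccnb3. Aurkb was at least 118-fold and Aurka at least 105-fold higher than Aurkc, and Kif2c at least 76.6-fold higher than Kif2b. By the same floor Ccna2 stood 465-fold above Ccna1 and Cdc20 282-fold above Cdc20b. Both Ccna2 and Cdc20 are overlapped, so their folds are uncertain and are not lower bounds. The other folds are lower bounds only for the strand that was counted and with the annotated exon lengths. In the list of 17 germline paralogs and meiosis genes, 11 were at 0 counts and 2 reached 1 TPM, which were Sycp3 (overlapped, 4.74 ± 4.35) and the meiotic cohesin gene Rec8 (1.16 ± 1.71).

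**Figure D5:**
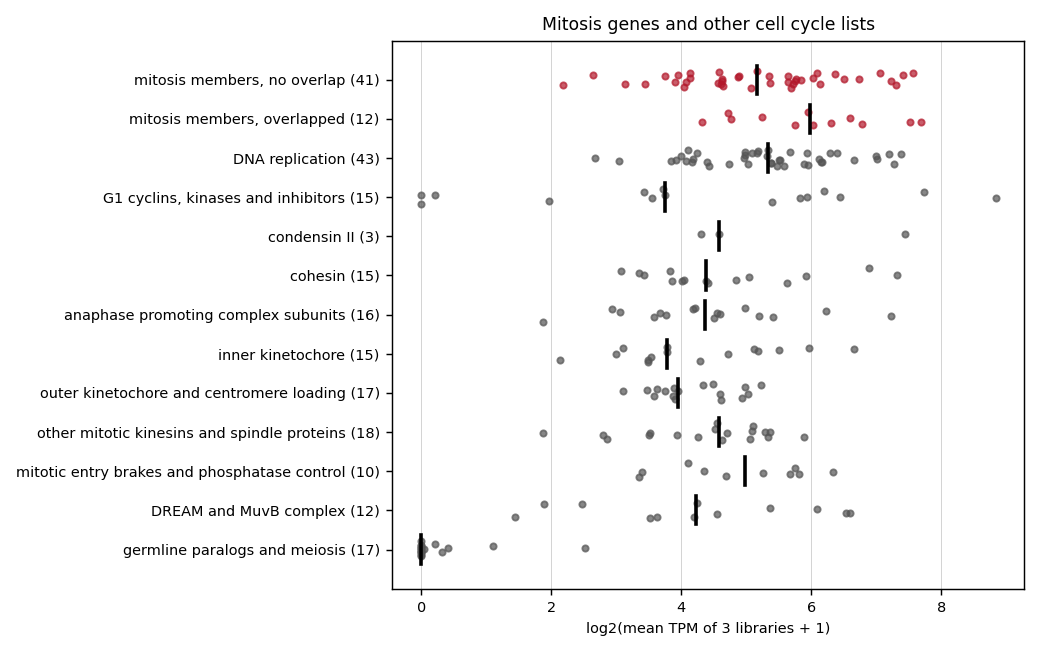
Mean level as log2(mean TPM of 3 libraries + 1) for the members (red), other cell cycle lists and the germline list (grey), 1 point a gene with the median as a bar. Members and DNA replication genes have the medians farthest right, and most germline points lie at 0.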

How the data were processed

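RNA-seq of 3 Th1 libraries was analysed from the deposited counts of fragments per gene, which per the file headers the authors made with featureCounts 1.4.6-p4 (both ends mapped, exons by gene, strand setting 1) on mm10 and GENCODE mouse 13. For the aligner, a version is not given in the sources used here. Value columns left unused: 0. Names came from GENCODE mouse 21, which matched 50376 of the 50600 genes. TPM was computed from the counts and the deposited exon length, means are over 3 libraries with the sample SD, and logs use a pseudocount of 1. An overlap is any exon base shared with an exon of the other strand (8189 genes).

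Library sizes were scaled by TMM in edgeR 4.0.16 (R 4.3.3), and libraries were compared by a chi-square test per gene in scipy 1.17.1. In its ratio the lowest library counts as at least 3 counts, scaled by library size, and its p-values were adjusted over all genes tested. The procedure was tested on simulated counts that held counting error only, with changes set in replicate 3 alone. How it finds changes in the shallow replicate 2 was not tested. Floors hold counting error only, as PCR copies are not separate molecules. Promoters are RefSeq windows on GRCm38.p6, which were missing for 9 members, among them Ccna2, Smc4, Aurkb and Incenp.

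Members, roles, lists and pairs were chosen with earlier results of these data known. All members, the 3 highest and 3 lowest genes of each pathway or comparison list, all germline paralogs and the opposite-strand partners may be named. Alternatives were DESeq2 1.42.0 size factors, library totals, TMM-scaled CPM, other filters, pseudocounts and ratio minimums, genes without overlap alone and leaving out each replicate. The promoter match near the start, the count at 10 TPM under each alternative and the joint removal of replicate 2 and overlapped genes were added after seeing the data. 1 marker gene is not reported here.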

Additional observations from a re-analysis of the deposited data

How the results depend on the processing

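Of the 53 members, 9 were called between libraries, against 29.5% of all genes. With a ratio minimum of 1.5 the count was 19 (all genes 44.7%), among genes without overlap 3 (15.5%) and among these without replicate 2 it was 0 (5.15%). It ran from 0 to 6 with 1 replicate left out, with 6 without replicate 1 (18.0%), 0 without replicate 2 (14.9%) and 5 without replicate 3 (11.8%). The fall to 0 came with leaving out replicate 2, the shallow library; other causes were not tested. DESeq2 size factors gave 9 (29.1%), library totals 12 (32.1%), no filter 9 (18.3%) and a mean count of at least 100 gave 8 of 46 (34.1%). All 53 members stayed at 1 TPM or more in each left-out setting, and 47 to 51 at 10 TPM or more. The median member level of 5.23 on the log2(TPM + 1) scale was 6.72 with TPM over genes without overlap, where the total holds fewer genes, and 5.19 to 5.62 with 1 replicate left out. Its distance of 1.58 from the median of detected coding genes was 2.4 from that of coding genes with any fragment, which takes in lower genes. The median deviation of members from the other libraries was 0.40 in replicate 1 (0.07 over genes without overlap, 0.18 to 0.7 with 1 replicate left out), 0.19 in replicate 2 (-0.18 to 0.51 with 1 left out) and -0.55 in replicate 3 (-0.11 with TMM-scaled CPM, -0.04 over genes without overlap, -0.7 to -0.51 with 1 left out). Over all genes tested these medians were 0.42, -0.11 and -0.25 in replicates 1, 2 and 3. Without overlap they were 0.43, 0.22 and -0.64 in members and 0.55, -0.04 and -0.48 in genes tested. With TPM over genes without overlap they were 0.07, -0.02 and -0.04 in members and 0.22, -0.28 and 0.09 in genes tested. In the 250 bases before the start alone, the CHR-type string was in 36.4% of members, against 18.3% of all genes and 12.5% of detected coding genes, and with the 50 bases after it in 68.2%, against 20.2% and 14.0%. CCAAT before the start was in 72.7% of members, against 37.5% and 40.7%. Without replicate 2 the mean log2 ratio of Ube2c to Ube2s was -0.18 in place of 0.26. No other pair ratio changed sign with a pseudocount of 0.1 or 1 replicate left out. Those of Spc24 to Spc25 (0.66 in place of 2.59) and Cdc25b to Cdc25c (0.23 in place of 1.68) fell without replicate 2 but stayed positive. Without replicate 1 the mean of Spc25 was 7.01 in place of 14.0 TPM and that of Cdc25c 5.31 in place of 9.87 TPM. No paired analysis was possible because there is 1 group of libraries. The depth of replicate 2 limits low members: 3 counts there equal 12.0 TPM in Cdc25c and 7.28 TPM in Spc25.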
